A study of Mus musculus with 43 samples.

Results

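Entry into mitosis, chromosome segregation and cytokinesis are carried out by a set of genes whose transcripts are made mainly in G2 and M phase. Of these, 46 mitosis genes were followed here across mouse intestinal organoids treated with TGFB1 with or without irradiation, and in sorted crypt cells of irradiated mice. The members were taken by gene symbol, and all 46 were found among the 23951 genes of each of the 3 expression tables and among the 54307 gene rows of the single-cell libraries. They were described in 6 groups by role: 7 genes of mitotic entry, 6 of the mitotic kinases and the chromosomal passenger complex, 8 of the spindle checkpoint and mitotic exit, 6 of the centromere and kinetochore, 14 of the spindle and cytokinesis, and 5 of chromosome structure.

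As background, cells enter mitosis when cyclin B and cyclin A activate the kinase CDK1, align their chromosomes on a spindle under the watch of the spindle assembly checkpoint, and leave mitosis when the anaphase-promoting complex (APC/C) marks cyclins and securin for degradation. Many of the genes involved share a promoter arrangement in which a cell cycle genes homology region (CHR), read by the MuvB complex with its partners MYBL2 and FOXM1, follows one or more CCAAT boxes bound by NF-Y. In the small intestine these genes are transcribed mostly by dividing stem and transit-amplifying cells of the crypt, and TGFB1 is known as a growth inhibitor of epithelial cells.

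The organoids were primary intestinal cultures of wild-type (WT) C57BL/6 mice. Bulk RNA-seq covered 18 libraries in 6 groups of 3. D7 non-IR organoids received no irradiation and were collected on day 7. D7 IR and D11 IR organoids were irradiated with 4 Gy on day 4 and collected on day 7 or day 11. Each of these conditions had a vehicle group and a group given 2 ng/mL TGFB1, both for 24 h from day 6, so the D11 organoids were collected 4 days after the end of the treatment. Single-cell RNA-seq covered 4 libraries of D8 organoids of the same strain, irradiated with 4 Gy on day 4, which had vehicle for 24 h (called 0 h) or 1 ng/mL TGFB1 for 6, 15 or 24 h before collection. A further 3 single-cell libraries held crypt cells from the proximal small intestine of Mki67tm1.1Cle/J mice, 1 from a non-irradiated littermate and 2 taken 56 h after 12 Gy of whole-body irradiation. Those cells were sorted as Ki67-RFP+ and DAPI-, so the sort used a reporter of the member Mki67, and its level there is no finding. Irradiated crypts were passed through a coarser strainer than non-irradiated ones. The labels do not say whether replicates came from separate mice or cultures, so p-values measure the spread between these libraries, which may be technical.

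Promoter sequences from RefSeq (GRCm38.p6; 250 bases before to 50 after each start) were matched to 37 of the 46 members. A CHR was searched as TTTGAA or TTCGAA and a CCAAT box as CCAAT, both on either strand (so also as TTCAAA or ATTGG). A match to these letters is a description of the sequence and not a binding site. CHR letters stood in 29 of the 37 promoters (78.4%), against 21.7% of the promoters of all 27025 genes in the table and 16.0% of those of 8499 other genes tested in D7 IR. CCAAT stood in 28 (75.7%, against 41.1% and 43.1%), and both together in 25 (67.6%, against 8.61% and 6.55%). In 19 promoters (51.4%) CCAAT occurred at least 2 times, against 13.3% of all genes and 16.9% of the other tested genes, and Ube2c and Top2a each held 6 matches. In 27 of the 37 (73.0%) the CHR lay within 50 bases of the start, against 6.12% of all genes. Counted in the bases before the start only, 13 members (35.1%) held a CHR, because in many the CHR letters lie just after the annotated start. An E2F-type match (TTCCCGC or TTCGCGC or TTGCCGC or TTGGCGC, on either strand) stood in 6 members (16.2%, against 10.9% of all genes and 20% of the other tested genes). A list of 30 S phase genes had the other arrangement: of 25 with a promoter, 76.0% held the E2F-type letters, 64.0% CCAAT and 24.0% a CHR. The promoters of Birc5, Mad2l1, Nuf2, Nusap1 and Pttg1 held neither CHR nor CCAAT.

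The 3 promoters shown are those of the members with the largest falls in D7 IR among those holding both motifs. The 250 bases before the start are given 5′ to 3′ on the strand of the gene, with CHR letters (TTTGAA) and CCAAT letters (CCAAT or ATTGG) in capitals. They lie on GRCm38.p6 at chr6:124829926-124830175 (Cdca3, plus strand), chr7:135716380-135716629 (Mki67, minus strand) and chr11:40733438-40733687 (Hmmr, minus strand).
Cdca3: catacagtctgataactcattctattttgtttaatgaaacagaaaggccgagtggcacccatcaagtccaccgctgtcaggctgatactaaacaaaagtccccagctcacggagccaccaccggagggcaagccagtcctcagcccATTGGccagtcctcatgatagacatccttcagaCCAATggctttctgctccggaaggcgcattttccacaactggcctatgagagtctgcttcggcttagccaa
Mki67: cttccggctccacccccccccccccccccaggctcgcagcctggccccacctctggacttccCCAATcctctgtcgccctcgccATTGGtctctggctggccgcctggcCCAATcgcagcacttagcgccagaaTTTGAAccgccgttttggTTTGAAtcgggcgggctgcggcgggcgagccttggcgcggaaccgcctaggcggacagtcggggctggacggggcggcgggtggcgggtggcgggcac
Hmmr: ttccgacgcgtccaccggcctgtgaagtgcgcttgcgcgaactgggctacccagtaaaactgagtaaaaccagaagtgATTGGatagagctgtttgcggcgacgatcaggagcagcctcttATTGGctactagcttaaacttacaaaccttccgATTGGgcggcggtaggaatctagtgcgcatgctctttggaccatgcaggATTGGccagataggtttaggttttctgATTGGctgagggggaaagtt
Counted from the start as base 1, the CHR of Cdca3 lies at bases 31 to 36 and that of Hmmr at bases 9 to 14, both after the start, with these surroundings.
Cdca3 CHR: gagggaagTTTGAAactccggg
Hmmr CHR: gaggtaaaTTTGAAttcaggcg
Mki67 has its CHR letters 2 times before the start, at −116 to −111 and at −98 to −93. Its 3 CCAAT matches lie further upstream, at −188 to −184, −166 to −162 and −141 to −137. Hmmr has 5 CCAAT matches, and Cdca3 has 3, of which the last spans the start and is left in lower case.

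The 18 RNA libraries summed to between 447728 and 621996 FPKM. Their read depth is unknown, so no counting interval was given for them. All 7 epithelial marker genes exceeded 1 FPKM in at least 1 group, whereas none of 4 endothelial, 2 of 8 mesenchymal and 3 of 7 measured immune markers did. Libraries of 1 group differed little in the members: the median coefficient of variation over the 46 genes was 2.62%, 2.86% and 7.75% with vehicle and 4.47%, 11.5% and 5.06% with TGFB1 (in the order D7 non-IR, D7 IR, D11 IR). Changes were tested with limma on log2(FPKM + 1), two-sided, with Benjamini-Hochberg adjustment over all genes tested, and called at an adjusted p under 0.05. Log2 changes and their standard errors (SE) are on that scale, which understates the change of genes with few FPKM. Adjusted p-values throughout are from limma.

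After 24 h of TGFB1 all 46 mitosis genes fell at D7, both without and with prior irradiation. In D7 non-IR organoids 34.9% of all 11330 genes tested were called lower and 33.3% higher. The members' log2 changes lay between −1.42 (Ccnb2) and −0.40 (Cks2) with a median of −0.91, while the median over all genes tested was −0.02. The largest adjusted p among them was 1.09e-05. In D7 IR organoids, 39.7% of 11258 genes were called lower and 35.8% higher. There the members' changes lay between −2.29 (Birc5) and −0.26 (Pttg1) with a median of −1.60, against −0.03 over all genes. At least a 2-fold fall on the log2 scale was called for 15 of 46 members in D7 non-IR and for 44 in D7 IR, against 2.92% and 5.39% of all genes. No member was that far higher, whereas 5.52% and 7.79% of all genes were. As a ratio of mean FPKM, the median fall was 1.94-fold (1.33 to 2.89) without and 3.37-fold (1.204 to 5.37) with irradiation. The 3 TGFB1 libraries lay below all 3 vehicle libraries for every one of the 46 genes in both tables, which held for 36.8% and 41.1% of all genes. All 3 TGFB1 libraries lay above the vehicle libraries for 35.3% and 37.1% of all genes and for no member. In bulk RNA, fewer dividing cells and less RNA per dividing cell cannot be told apart.

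Summed over the 46 genes, FPKM went from 1959 ± 10.4 with vehicle to 994 ± 18.8 with TGFB1 in D7 non-IR (SD, n = 3) and from 1924 ± 14 to 548.7 ± 45 in D7 IR. At D11 the sums were 1874 ± 61.3 with vehicle and 2061 ± 110 after TGFB1. The vehicle sums of the 3 tables were thus alike, and the TGFB1 sums were not. Cell type markers moved as well. Summed FPKM of the 7 epithelial markers went from 5144 to 5226 up to 12880 to 13450 in D7 non-IR and from 5459 to 5604 up to 13650 to 14760 in D7 IR (lowest and highest library). The sum of the 7 stem cell markers went from 915 to 1002 down to 579.9 to 603.5 without irradiation and from 980.1 to 1013 down to 394 to 479 with it. The stem cell markers did not move together in D7 non-IR, where 4 of 7 fell, led by Olfm4 (mean 373.5 to 77.3 FPKM), and Ascl2 (16 to 34.9 FPKM) and Slc12a2 (295.4 to 319.9 FPKM) rose. The sum of the 10 enterocyte markers went from 3465 to 3622 down to 1537 to 1668 without irradiation and from 14450 to 15420 up to 21260 to 22110 with it. Of these markers 9 fell and 1 rose in D7 non-IR, whereas in D7 IR 5 rose, 3 fell and 2 were not called. Immune markers went from 26.2 to 29.9 up to 81.0 to 90.5 FPKM in D7 non-IR and were at or below 13.1 FPKM in all other groups. That difference lay almost wholly in Cd74 (26.2 to 83.3 FPKM), while Itgam fell (1.68 to 0.815 FPKM) and Lyz2 stood at 0.426 and 0.235 FPKM. In D7 IR all 7 Paneth markers rose (sums of 4684 to 5385 and 8297 to 8430 FPKM), as did all 8 enteroendocrine markers (223.4 to 228.2 and 391 to 415.1 FPKM). Goblet sums were lower with TGFB1 in both D7 conditions (6282 to 6645 against 4714 to 5111, and 2586 to 2632 against 2212 to 2403 FPKM). Mesenchymal markers summed to at most 9.97 and endothelial markers to at most 0.308 FPKM. The part of these shifts in the members' change was not tested.

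**Figure D1:**
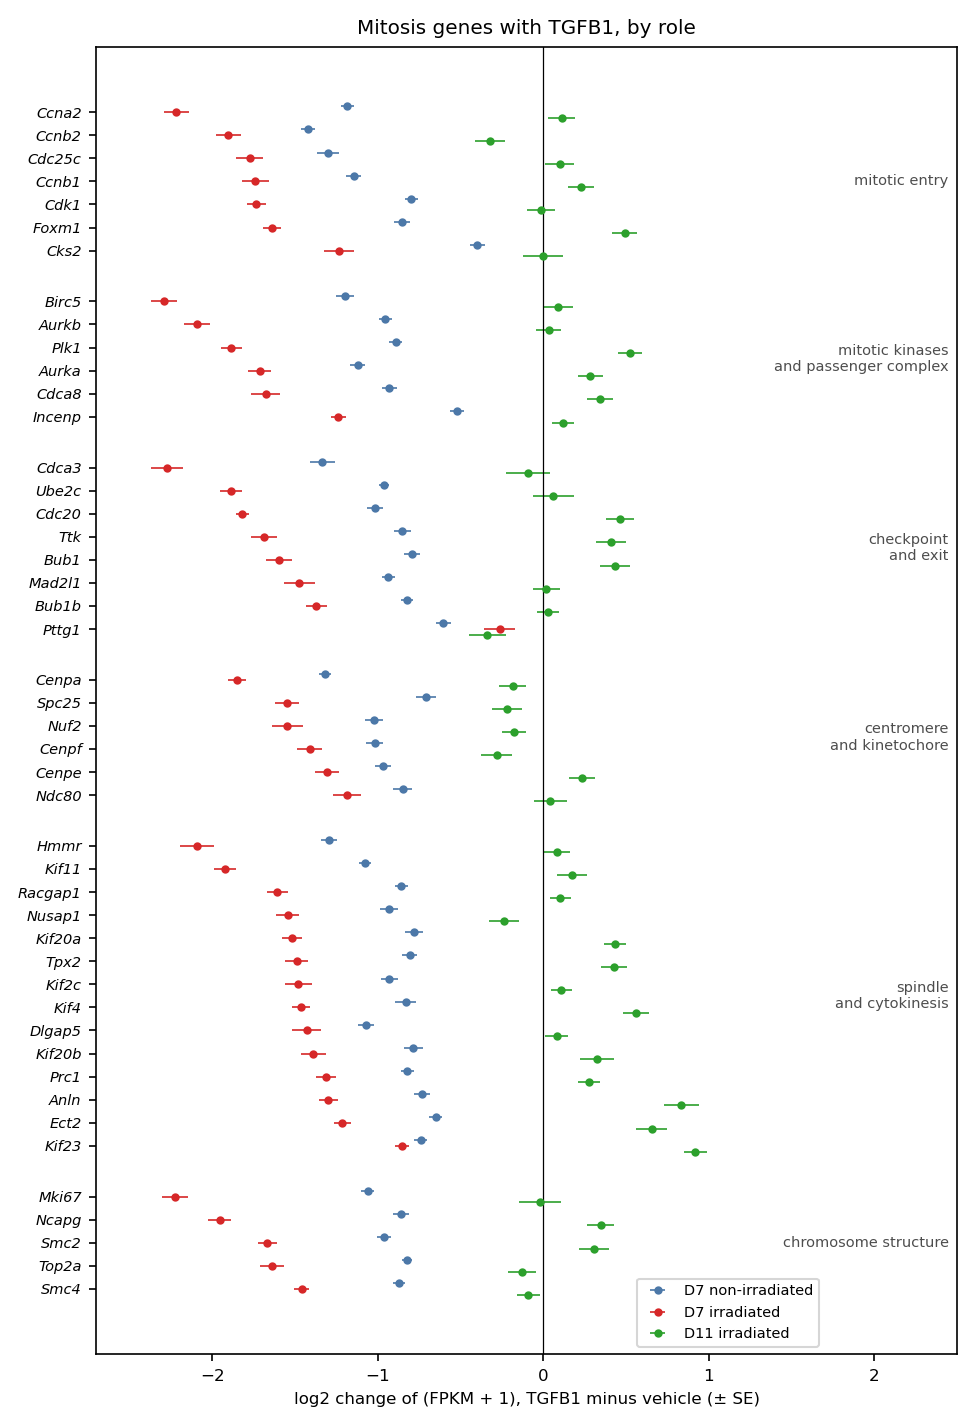
Change of log2(FPKM + 1), TGFB1 minus vehicle, for each of the 46 mitosis genes (rows, sorted by role), with points for the mean difference and bars for ± SE, coloured by condition (D7 non-irradiated, D7 irradiated, D11 irradiated). All points lie below 0 at D7, and at D11 they spread around 0 from −0.34 to 0.92.

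Among genes of mitotic entry, Ccna2 (cyclin A2, a partner of CDK1) had the highest FPKM, and the largest fall of the group in D7 IR. In D7 non-IR it was at 118, 127 and 123 FPKM with vehicle and 56.2, 51.7 and 52.5 FPKM with TGFB1 (log2 change −1.18, SE 0.0417, adjusted p 1.4e-09). In D7 IR it was at 108, 102 and 111 FPKM with vehicle and 22.9, 24.6 and 19.4 FPKM with TGFB1 (−2.22, SE 0.076, adjusted p 6.23e-09). The vehicle libraries of both tables lay close together, and the TGFB1 libraries were at 43.6% of vehicle on average without and 20.9% with irradiation. The B-type cyclin Ccnb2 had the largest fall of all members in D7 non-IR, where it was at 79.3, 79.1 and 77.2 FPKM with vehicle and 28.6, 27.1 and 30.5 FPKM with TGFB1 (−1.42, SE 0.0438). In D7 IR it was at 51.5, 55.8 and 57.2 FPKM with vehicle and 12.9, 16.03 and 13.04 FPKM with TGFB1 (−1.902, SE 0.078). Cks2, a small protein that binds CDK1, changed least of the group in both tables. It was at 45.3, 45.1 and 42.3 FPKM with vehicle and 34.9, 32.6 and 32.5 FPKM with TGFB1 in D7 non-IR (−0.40, SE 0.043) and at 18.4, 19.99 and 16.8 FPKM with vehicle and 7.35, 8.15 and 6.27 FPKM with TGFB1 in D7 IR (−1.24, SE 0.0894). Its libraries did not overlap either time. The other 4 genes, Ccnb1, Cdk1, the CDK1-activating phosphatase Cdc25c and the transcription factor Foxm1, changed by −1.30 to −0.80 in D7 non-IR and by −1.77 to −1.64 in D7 IR. Foxm1 went from a mean of 13.5 to 7.02 FPKM without and from 23.5 to 6.86 FPKM with irradiation.

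Of the mitotic kinases and the chromosomal passenger complex, Birc5 (survivin, a subunit of that complex) had the largest fall of all members in D7 IR. It was at 86.4, 88.5 and 88.7 FPKM with vehicle and 41.3, 34.9 and 37.2 FPKM with TGFB1 in D7 non-IR (−1.199, SE 0.0539) and at 104, 102 and 106 FPKM with vehicle and 20.7, 23.1 and 17.9 FPKM with TGFB1 in D7 IR (−2.29, SE 0.0765). With vehicle its libraries were higher with irradiation than without, and with TGFB1 they were lower. Plk1 encodes a kinase needed from mitotic entry to cytokinesis. Its level was 50.6, 51.3 and 51 FPKM with vehicle and 28.3, 26.99 and 25.9 FPKM with TGFB1 in D7 non-IR (−0.89, SE 0.04) and 98.8, 103 and 101 FPKM with vehicle and 29, 27.5 and 23.7 FPKM with TGFB1 in D7 IR (−1.88, SE 0.0649). The TGFB1 libraries of both tables were at a like level, between 23.7 and 29.0 FPKM, although the vehicle libraries were not. Incenp, the scaffold of the passenger complex, changed least of the group, with 28.2, 27.9 and 28.9 FPKM with vehicle and 18.9, 20.2 and 19.2 FPKM with TGFB1 in D7 non-IR (−0.52, SE 0.0406) and 45.6, 49.02 and 48.3 FPKM with vehicle and 20.7, 18.96 and 19.3 FPKM with TGFB1 in D7 IR (−1.24, SE 0.0482). The remaining members were Aurka (spindle pole kinase), Aurkb (the kinase of the passenger complex) and Cdca8 (borealin). They changed by −1.12, −0.95 and −0.93 in D7 non-IR and by −1.71, −2.09 and −1.68 in D7 IR.

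In the checkpoint and exit group, Ube2c, the ubiquitin-conjugating enzyme of the APC/C, had the highest FPKM of all 46 genes. It was at 236, 236 and 246 FPKM with vehicle and 125, 121 and 121 FPKM with TGFB1 in D7 non-IR (−0.96, SE 0.0317) and at 379, 381 and 377 FPKM with vehicle and 104, 113 and 90.5 FPKM with TGFB1 in D7 IR (−1.89, SE 0.0677). Cdca3, a regulator of mitotic entry, was at 62.5, 71.8 and 72.9 FPKM with vehicle and 26.8, 24.3 and 29.4 FPKM with TGFB1 in D7 non-IR (−1.33, SE 0.076) and at 127, 134 and 129 FPKM with vehicle and 28.1, 28.9 and 21.8 FPKM with TGFB1 in D7 IR (−2.27, SE 0.0958). As with Plk1, the TGFB1 libraries of the 2 conditions covered nearly the same range, while the vehicle libraries were higher with irradiation. Pttg1 (securin, which holds separase inactive) departed from the rest. In D7 non-IR it was at 51.3, 50.1 and 47.6 FPKM with vehicle and 33.05, 33.6 and 30.4 FPKM with TGFB1 (−0.60, SE 0.0465). In D7 IR it was at 23.2, 25.9 and 23.2 FPKM with vehicle and 19.7, 17.2 and 23.1 FPKM with TGFB1 (−0.26, SE 0.0946, adjusted p 0.0297), so its highest TGFB1 library nearly reached its lowest vehicle library. That call was lost without vehicle replicate 2 (adjusted p 0.0978), TGFB1 replicate 1 (0.0763) or TGFB1 replicate 2 (0.0814). The checkpoint genes Bub1, Bub1b, Ttk and Mad2l1 and the APC/C activator Cdc20 changed by −1.02 to −0.79 in D7 non-IR and by −1.82 to −1.37 in D7 IR.

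Genes of the centromere and kinetochore fell by a median of 0.99 in D7 non-IR and of 1.48 in D7 IR on the log2 scale. Cenpa, the histone variant that marks centromeres, was at 59.7, 58.5 and 60 FPKM with vehicle and 23.9, 22.9 and 22.8 FPKM with TGFB1 in D7 non-IR (−1.32, SE 0.0359) and at 35.4, 39.4 and 34.9 FPKM with vehicle and 9.16, 9.43 and 9.63 FPKM with TGFB1 in D7 IR (−1.85, SE 0.0543). Spc25, a subunit of the NDC80 complex that couples kinetochores to microtubules, was at 24.9, 23.9 and 21.6 FPKM with vehicle and 14.96, 13.5 and 13.4 FPKM with TGFB1 in D7 non-IR (−0.71, SE 0.0601). With irradiation it was at 23.7, 22.4 and 22.5 FPKM with vehicle and 7.93, 7.35 and 6.29 FPKM with TGFB1 (−1.55, SE 0.072). Its vehicle libraries were alike in the 2 tables, and its TGFB1 libraries were lower with irradiation. Ndc80 itself had low FPKM: 10.2, 10.3 and 9.73 FPKM with vehicle and 5.49, 4.77 and 5.22 FPKM with TGFB1 in D7 non-IR (−0.85, SE 0.0589) and 5.51, 6.38 and 6.14 FPKM with vehicle and 2.38, 2.06 and 1.83 FPKM with TGFB1 in D7 IR (−1.18, SE 0.0857). Cenpf, a kinetochore protein of G2 and M phase, was at 12.01, 12.2 and 12.05 FPKM with vehicle and 5.16, 5.69 and 5.52 FPKM with TGFB1 in D7 non-IR (−1.02, SE 0.051) and at 6.07, 6.22 and 6.396 FPKM with vehicle and 1.88, 1.79 and 1.499 FPKM with TGFB1 in D7 IR (−1.41, SE 0.0758). For both genes the libraries were well apart. Cenpe, a kinetochore kinesin, and Nuf2, a further NDC80 subunit, changed by −0.97 and −1.02 in D7 non-IR and by −1.30 and −1.55 in D7 IR.

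The 14 spindle and cytokinesis genes had a median of −0.83 without and of −1.47 with irradiation. Hmmr, a microtubule-associated protein of the spindle, had the largest fold fall of all members in D7 IR. It was at 25.3, 26.04 and 26.6 FPKM with vehicle and 9.55, 10.5 and 10 FPKM with TGFB1 in D7 non-IR (−1.29, SE 0.0468) and at 15.1, 14.5 and 15.96 FPKM with vehicle and 3.48, 2.73 and 2.27 FPKM with TGFB1 in D7 IR (−2.09, SE 0.102, 5.37-fold by mean FPKM). Nusap1, which stabilises spindle microtubules, was at 38.5, 36.5 and 40.1 FPKM with vehicle and 20.9, 18.4 and 19.7 FPKM with TGFB1 in D7 non-IR (−0.93, SE 0.0526) and at 24.4, 25.4 and 24.3 FPKM with vehicle and 8.51, 8.12 and 6.88 FPKM with TGFB1 in D7 IR (−1.54, SE 0.0691). Prc1 bundles microtubules of the central spindle. Its level was 47.98, 48.9 and 46.3 FPKM with vehicle and 26.5, 25.9 and 27.4 FPKM with TGFB1 in D7 non-IR (−0.82, SE 0.0387) and 30.5, 31.1 and 31.3 FPKM with vehicle and 12.6, 12.4 and 10.7 FPKM with TGFB1 in D7 IR (−1.31, SE 0.0599). Ect2, the exchange factor that activates RhoA at the division site, was at 54.1, 51.4 and 50.5 FPKM with vehicle and 32.7, 32.5 and 33.1 FPKM with TGFB1 in D7 non-IR (−0.65, SE 0.0376). After irradiation it was at 23.9, 22.3 and 23.05 FPKM with vehicle and 9.21, 9.92 and 9.03 FPKM with TGFB1 (−1.21, SE 0.0524). In each of these genes the 2 groups of libraries were apart.

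Kif23, the kinesin of centralspindlin, was the exception in this group: its fall was nearly the same size in both conditions. It was at 36.9, 36.1 and 36.2 FPKM with vehicle and 20.9, 22.1 and 21.2 FPKM with TGFB1 in D7 non-IR (−0.74, SE 0.0378) and at 28.9, 29.2 and 29.03 FPKM with vehicle and 15.3, 15.3 and 16.3 FPKM with TGFB1 in D7 IR (−0.85, SE 0.044). The other 9 genes of the group are Kif11, Kif2c, Kif4, Kif20a and Kif20b (kinesins), Tpx2 (activator of Aurora A), Dlgap5 (stabiliser of kinetochore fibres), Racgap1 (the partner of Kif23 in centralspindlin) and Anln (anillin). They changed by −1.08 to −0.73 in D7 non-IR and by −1.92 to −1.30 in D7 IR.

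In the chromosome structure group, Top2a, the topoisomerase that disentangles sister chromatids, was at 99.5, 100.4 and 98.3 FPKM with vehicle and 56.4, 56.4 and 54.5 FPKM with TGFB1 in D7 non-IR (−0.82, SE 0.0318). Its level in D7 IR was 72.5, 70.8 and 72.7 FPKM with vehicle and 24.4, 23.7 and 19.6 FPKM with TGFB1 (−1.64, SE 0.0722). Mki67, which coats mitotic chromosomes, was at 48.3, 46.5 and 46.5 FPKM with vehicle and 21.6, 22.8 and 21.8 FPKM with TGFB1 in D7 non-IR and at 56.4, 55.4 and 58.1 FPKM with vehicle and 11.3, 12.9 and 9.896 FPKM with TGFB1 in D7 IR (−1.06 and −2.23). Smc4, a core subunit of condensin, was at 63.2, 63.4 and 62.5 FPKM with vehicle and 33.8, 35.2 and 33.2 FPKM with TGFB1 in D7 non-IR (−0.87, SE 0.0354) and at 34.4, 33.9 and 36.7 FPKM with vehicle and 12.2, 12.2 and 11.8 FPKM with TGFB1 in D7 IR (−1.46, SE 0.0464). Vehicle levels of Top2a and Smc4 were lower with irradiation, and that of Mki67 was higher. The condensin genes Smc2 and Ncapg changed by −0.96 and −0.86 in D7 non-IR and by −1.67 and −1.96 in D7 IR.

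**Figure D2:**
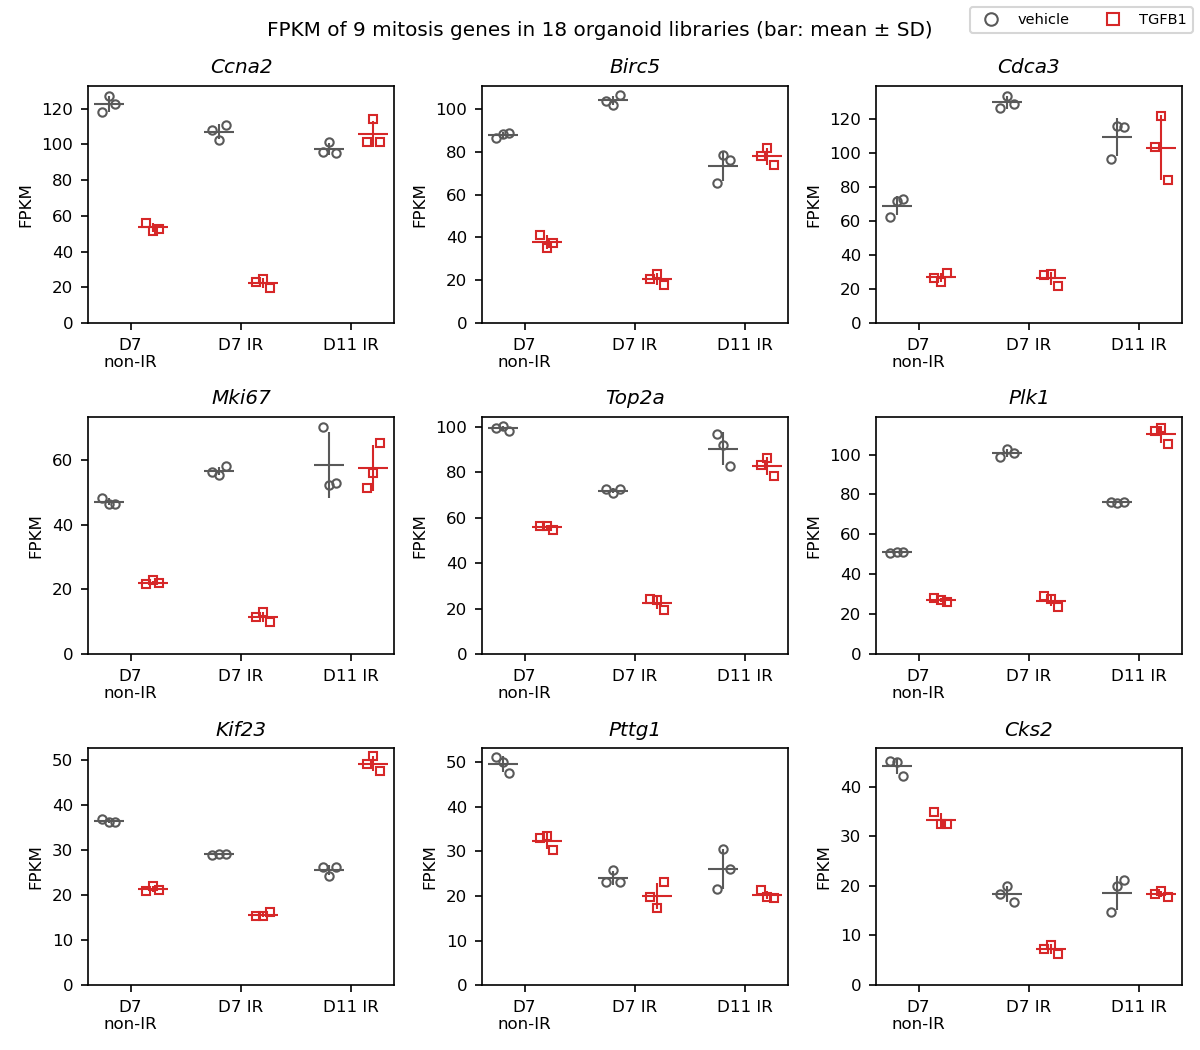
FPKM of 9 mitosis genes (linear axes) in each of the 18 libraries, with vehicle and TGFB1 side by side for each condition, points for libraries, horizontal bars for the mean of 3 and vertical bars for ± SD. TGFB1 libraries lie below vehicle at D7 in all 9 genes, and at D11 those of Plk1 and Kif23 lie above.

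The difference between the 2 falls was tested as an interaction over the 12 D7 libraries, in which a negative value is a larger fall with irradiation. It was called lower for 44 of 46 members, against 27.8% of 11411 genes tested (25.3% were called higher). The median over members was −0.69, against −0.01 over all genes. The largest values were those of Mki67 (−1.16, adjusted p 1.57e-07), Aurkb (−1.14, adjusted p 2.16e-07), Ncapg (−1.09, adjusted p 8.52e-08) and Birc5 (−1.09, adjusted p 1.19e-06). A difference of at least 2-fold was called for 5 members lower and none higher (1.85% and 2.53% of all genes). By role group the medians were −0.87 for kinases and passenger complex, −0.81 for chromosome structure, −0.80 for checkpoint and exit, −0.79 for mitotic entry, −0.61 for spindle and cytokinesis and −0.46 for centromere and kinetochore. Kif23 was not called (−0.11, SE 0.0531, adjusted p 0.0915). Without TGFB1 replicate 3 of D7 IR its value was −0.14 and passed (adjusted p 0.0331). Pttg1 had the opposite sign (0.34, SE 0.116, adjusted p 0.0238), but this call was lost without vehicle replicate 1 or TGFB1 replicate 3 of D7 non-IR and without vehicle replicate 1 or 3 of D7 IR, with values of 0.30 to 0.32. With a pseudocount of 5 the members' median was −0.42 and 40 were called lower. Ndc80 (−0.064, adjusted p 0.383) and Cenpf (−0.033, adjusted p 0.579), both with few FPKM, were not called under that setting. Both count in the centromere and kinetochore median given above, so its place among the role groups depends on the scale.

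**Figure D3:**
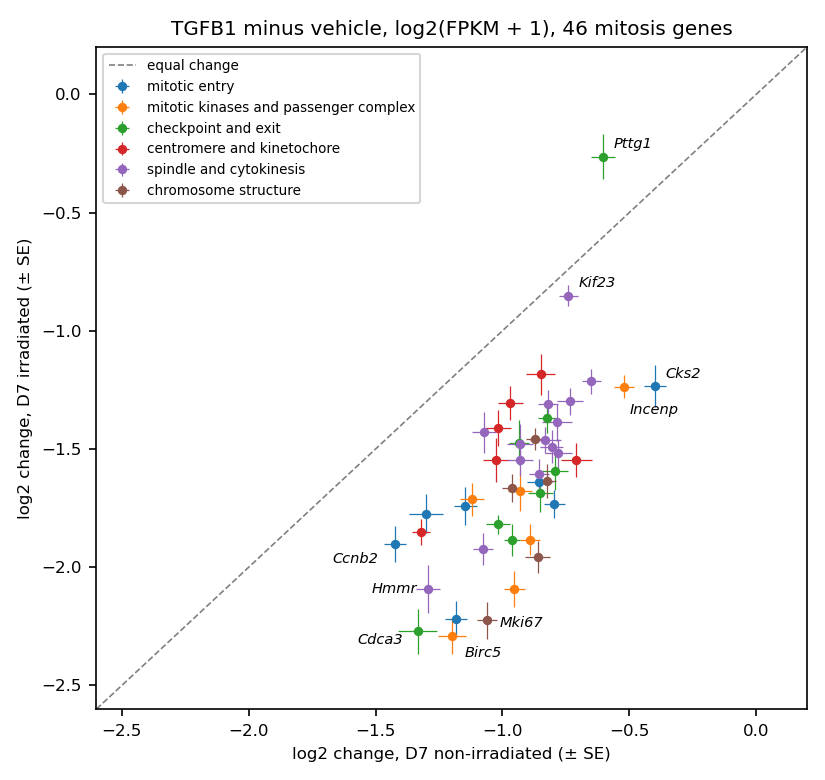
TGFB1 minus vehicle, as log2(FPKM + 1), for the 46 mitosis genes without irradiation (horizontal) and with it (vertical) at D7, with bars for ± SE, colours for role and a dashed line of equal change. All but Pttg1 lie below the line, and Kif23 lies nearest to it among the rest.

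Vehicle levels were set side by side between tables, which were made separately, so no test was run. In D7 IR against D7 non-IR, 29 of 46 members had all 3 vehicle libraries lower and 13 had all 3 higher (44.3% and 40.7% of all genes), with a median difference of −0.32. The 13 higher genes included Plk1, Ube2c, Cdca3, Birc5, Incenp, Cdc20, Foxm1 and Mki67, and the 29 lower ones included Cks2, Ect2, Anln, Smc4, Ndc80, Cenpf and Pttg1. With TGFB1, 42 of the 46 had all 3 libraries lower in D7 IR than in D7 non-IR (45.7% of all genes), and none had all 3 higher (38.4%). Vehicle levels thus differed in both directions, and TGFB1 levels in 1 direction.

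At D11, 4 days after the end of TGFB1, the members no longer moved one way. Of the 46 genes 19 were higher, 4 were lower and 23 were not called, at a median of 0.11. All 3 TGFB1 libraries lay above the vehicle libraries for 23 members and below them for 7, against 35.8% and 34.3% of all genes. Over all 11479 genes tested 32.3% were called higher and 31.6% lower. The highest values were those of cytokinesis genes. Kif23 was at 26.3, 24.2 and 26.2 FPKM with vehicle and 49.1, 50.9 and 47.6 FPKM with TGFB1 (0.92, SE 0.0694, adjusted p 3e-06, 1.93-fold). Ect2 was at 30.2, 24.6 and 26.2 FPKM with vehicle and 39.98, 41.9 and 47.3 FPKM with TGFB1 (0.66, SE 0.0944, adjusted p 0.000207). In both genes every TGFB1 library lay above every vehicle library, and the D11 levels after TGFB1 of Kif23 were also above those of vehicle at D7. Anln rose from a mean of 11.9 to 22.0 FPKM (0.83, SE 0.105) and Kif4 from 9.66 to 14.7 FPKM (0.56, SE 0.0786). Plk1 was at 76.2, 75.9 and 76.3 FPKM with vehicle and 112, 113 and 105 FPKM with TGFB1 (0.53, SE 0.0723) and Prc1 at 34.6, 37.3 and 36.1 FPKM with vehicle and 45.3, 43.3 and 42.7 FPKM with TGFB1 (0.28, SE 0.0675), each with the groups apart. Foxm1 rose from 21.9 to 31.1 FPKM (0.49, SE 0.0763) and Cdc20 from 62.7 to 86.8 FPKM (0.46, SE 0.0827). None of the 46 changed by at least 2-fold, against 5.67% of all genes called that far higher and 8.04% lower. Cell type markers differed at D11 as well. Enteroendocrine sums were 452.3 to 479.7 FPKM with vehicle and 146.4 to 170.7 FPKM after TGFB1. Sums were also lower for enterocyte (3454 to 6126 against 2218 to 2611 FPKM) and goblet markers (3250 to 3954 against 2361 to 2574 FPKM). They were higher for Paneth (3108 to 3861 against 4550 to 5852 FPKM) and epithelial markers (4827 to 5983 against 6704 to 7334 FPKM), and overlapped for stem cell markers (581.4 to 759.4 and 718.5 to 880.5 FPKM). Single markers did not all follow the sums. Of 7 epithelial markers 1 was called higher and 2 lower, and of 7 Paneth markers 5 higher and 0 lower. Of 10 enterocyte markers 5 were lower and 1 higher, of 8 goblet markers 4 and 2, and of 8 enteroendocrine markers 6 and 1. Their part in the members' values was not tested.

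By role, 8 of the 14 spindle and cytokinesis genes rose and 1 fell (median 0.30), and 3 of the 6 kinase and passenger genes rose (0.20). In the checkpoint and exit group 3 of 8 rose and 1 fell (0.05), in mitotic entry 2 of 7 rose and 1 fell (0.10), and in chromosome structure 2 of 5 rose (−0.02). Among the 6 centromere and kinetochore genes 1 rose and 1 fell, with a median of −0.18. Of all genes tested 32.3% were called higher and 31.6% lower. The counts of rises in checkpoint and exit, mitotic entry and chromosome structure are near the share of all genes.

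The 4 genes called lower at D11 changed little, and each call depended on single libraries. Ccnb2 was at 54.9, 65.2 and 64.3 FPKM with vehicle and 50.4, 52.1 and 44.6 FPKM with TGFB1 (−0.32, adjusted p 0.0122, lost without TGFB1 replicate 3 (0.0516) or vehicle replicate 2). Pttg1 was at 21.5, 30.6 and 26.1 FPKM with vehicle and 21.3, 19.8 and 19.6 FPKM with TGFB1 (−0.34, adjusted p 0.0262, lost without vehicle replicate 2 or 3 or TGFB1 replicate 2 or 3). Cenpf was at 10.7, 8.904 and 8.69 FPKM with vehicle and 7.41, 7.49 and 7.76 FPKM with TGFB1 (−0.28, adjusted p 0.0248, lost without vehicle replicate 1 or TGFB1 replicate 1 or 2). For these 3 genes, and for Nusap1, all TGFB1 libraries lay below the vehicle libraries. Nusap1 was at 38.6, 36.2 and 36.9 FPKM with vehicle and 33.8, 33.5 and 27.4 FPKM with TGFB1 (−0.24, adjusted p 0.0403), and its call was lost without any one of the vehicle libraries or without TGFB1 replicate 3.

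Most of the genes with the largest falls at D7 were not called at D11. Ccna2 was at 95.9, 101 and 95.1 FPKM with vehicle and 102, 114 and 101 FPKM with TGFB1 (0.11, SE 0.0816, adjusted p 0.253), and Birc5 was at 65.2, 78.7 and 76.03 FPKM with vehicle and 78.1, 81.8 and 73.7 FPKM with TGFB1 (0.09, SE 0.0899). Cdca3 was at 96.8, 116 and 115 FPKM with vehicle and 104, 122 and 84.2 FPKM with TGFB1 (−0.09, SE 0.134). In these genes the groups overlapped. Hmmr was at 18.9, 16.02 and 17.5 FPKM with vehicle and 18.04, 19.4 and 18.1 FPKM with TGFB1 (0.08), and Mki67 was at 70.3, 52.4 and 53.1 FPKM with vehicle and 51.3, 56.2 and 65.2 FPKM with TGFB1 (−0.02, with a sign that changed under quantile normalization). Ube2c was at 299, 367 and 343 FPKM with vehicle and 357, 391 and 306 FPKM with TGFB1 (0.06), Top2a at 96.9, 91.9 and 82.8 FPKM with vehicle and 83.2, 86.5 and 78.5 FPKM with TGFB1 (−0.13) and Cks2 at 14.7, 20.02 and 21.2 FPKM with vehicle and 18.4, 18.99 and 17.8 FPKM with TGFB1 (0.00). Their libraries overlapped as well, and a failed call does not show that levels were equal. Incenp was at 52.03, 53.8 and 50.4 FPKM with vehicle and 58, 56.7 and 55.2 FPKM with TGFB1 (0.12, adjusted p 0.147), with the groups apart but without a call. Cenpa was at 36.6, 43.2 and 39.9 FPKM with vehicle and 35.7, 36.3 and 32.8 FPKM with TGFB1 (−0.18), Spc25 at 23.8, 27.3 and 28.9 FPKM with vehicle and 23.2, 24.02 and 20.9 FPKM with TGFB1 (−0.22), Ndc80 at 8.59, 8.66 and 7.58 FPKM with vehicle and 8.87, 9.35 and 7.498 FPKM with TGFB1 (0.04) and Smc4 at 40.6, 39.9 and 38.98 FPKM with vehicle and 37.95, 38.5 and 35.7 FPKM with TGFB1 (−0.09), none of them called. For Cenpa and Smc4 all TGFB1 libraries lay below the vehicle libraries.

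The interaction of TGFB1 with day over the 12 irradiated libraries was called higher for 45 of 46 members, against 31.5% of 11456 genes (33.0% were called lower), with a median of 1.87. The largest value was that of Plk1 (2.41, adjusted p 3.91e-10). At least a 2-fold difference was called higher for the same count, 45, against 6.83% of all genes, and for none lower (9.58%). Only Pttg1 was not called (−0.07, SE 0.164, adjusted p 0.714). Set side by side, the TGFB1 libraries of D11 were all above those of D7 IR for 45 of 46 members (38.7% of all genes) and all below for none (38.8%), with a median difference of 1.83. Between the vehicle libraries of the same days 20 members were all higher and 10 all lower at D11 (33.7% and 33.1% of all genes), with a median of 0.08. Vehicle libraries of D11 lay all below those of D7 non-IR for 32 members and all above for 11 (37.7% and 38.3% of all genes), with a median of −0.29.

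Beyond the members, 110 further genes of mitosis in 6 lists were counted. In D7 non-IR 91 of 110 fell and 6 rose (median −0.53), in D7 IR 101 fell and 5 rose (−1.09), and at D11 33 rose and 22 fell (0.03). Of all genes tested, 34.9% fell and 33.3% rose in D7 non-IR, 39.7% fell and 35.8% rose in D7 IR, and 31.6% fell and 32.3% rose at D11. The 33 of 110 higher at D11 are near the share of all genes. All 34 other kinesins and spindle factors fell in both D7 conditions, as did 19 and 22 of 22 other kinetochore genes and 18 and 17 of 18 genes of condensin and cohesin. The list of 16 APC/C genes, which also holds the inhibitor Fbxo5, was mixed. Of these genes 8 were lower and 4 higher in D7 non-IR (34.9% and 33.3% of all genes). In D7 IR 11 were lower and 2 higher (39.7% and 35.8%). Fbxo5, an APC/C inhibitor, had the largest fall of that list in D7 IR (13.4 ± 0.402 to 3.66 ± 0.319 FPKM, SD, n = 3; −1.63, adjusted p 4.96e-09). Anapc2, a core subunit, had its largest rise (42.7 ± 0.299 to 69.95 ± 4.11 FPKM; 0.70, adjusted p 1.82e-07).

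The regulators that read CHR and CCAAT letters were in a list of 13 genes (MuvB, MYBL2 and NF-Y), of which 7 fell and 2 rose in D7 non-IR (34.9% and 33.3% of all genes) and 11 fell and 2 rose in D7 IR (39.7% and 35.8%). Mybl2 was at 6.11 ± 0.0602 and 5.57 ± 0.488 FPKM with vehicle and TGFB1 in D7 non-IR (−0.12, adjusted p 0.132). In D7 IR it fell from 9.46 ± 0.26 to 2.38 ± 0.528 FPKM (−1.64, adjusted p 2.09e-07), and at D11 it rose from 9.02 ± 0.901 to 15.2 ± 1.72 FPKM (0.69, adjusted p 0.000261; SD, n = 3). Its interaction with irradiation was −1.52 (adjusted p 3.67e-07). Lin37, a MuvB subunit, had the largest rise of the list in D7 IR (35.2 ± 2.36 to 50.8 ± 4.26 FPKM; 0.51, adjusted p 4.21e-05).

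Of 30 S phase genes, 23 fell and 2 rose in D7 non-IR (median −0.41), 30 fell in D7 IR (−1.32), and 11 fell and 4 rose at D11 (−0.11). The 11 lower at D11 are near the 31.6% of all genes called lower there. Of all genes, 34.9% fell and 33.3% rose in D7 non-IR, and 39.7% fell and 35.8% rose in D7 IR. Rrm2, a subunit of ribonucleotide reductase, had the largest fall in D7 IR (40.2 ± 1.22 to 8.02 ± 1.49 FPKM, −2.21, adjusted p 1.73e-07). Gins4, a subunit of the replicative helicase, had the smallest (25.4 ± 1.37 to 19.0 ± 0.493 FPKM, −0.40, adjusted p 2.67e-05). Among 9 CDK inhibitors and D cyclins, 3 rose and 2 fell in D7 non-IR, 3 rose and 5 fell in D7 IR (8 tested each time), and 5 rose and 2 fell at D11. Over all genes 33.3, 35.8 and 32.3% rose and 34.9, 39.7 and 31.6% fell in the same order. The counts of rises at D7 are near those shares. Cdkn1a, a CDK inhibitor induced by p53, had the largest rise in D7 non-IR (200 ± 7.5 to 410.6 ± 25.8 FPKM, SD, n = 3; 1.03, adjusted p 1.14e-08) and rose in D7 IR (173.1 ± 0.946 to 333.6 ± 20.1 FPKM; 0.94, adjusted p 1.58e-08). Cyclin D1 (Ccnd1) rose in D7 non-IR (0.77, adjusted p 5.99e-09) and at D11 (1.19, adjusted p 7.26e-06) but fell in D7 IR (−0.38, adjusted p 8.74e-05). Cyclin D2 (Ccnd2) fell at D7 both without and with irradiation (−0.60 and −1.64). Cdkn2b, an inhibitor of the D cyclin kinases, rose from 33.7 ± 0.457 to 40.4 ± 3.59 FPKM in D7 non-IR (0.25, adjusted p 0.00242). It rose from 40.4 ± 1.89 to 84.3 ± 2.86 FPKM in D7 IR (1.04, adjusted p 8.19e-09) and was still higher at D11 (18.9 ± 2.25 to 38.7 ± 2.56 FPKM, 1.00, adjusted p 1.29e-05). Cdkn2c, of the same family, fell from 7.68 ± 0.422 to 1.64 ± 0.334 FPKM in D7 IR (−1.73, adjusted p 5.31e-08).

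In the single-cell libraries of irradiated D8 organoids there was 1 library per time, so nothing was tested, and intervals (exact Poisson, 95%) cover counting error only. Cells with at least 500 UMIs, 250 genes and no more than 20% mitochondrial UMIs were kept, which left 2932 (0 h), 4283 (6 h), 2890 (15 h) and 2218 (24 h) cells. Their median depths, in the same order, were 8201, 6709, 7805 and 10440 UMIs. The 15 h and 24 h libraries shared 1 cell barcode. The 46 genes summed to 2329 CPM at 0 h (2311 to 2347), 2719 at 6 h (2701 to 2737), 1750 at 15 h (1734 to 1766) and 1325 at 24 h (1312 to 1338). The sum was thus highest at 6 h and lowest at 24 h. S phase genes summed to 1484, 1518, 935.2 and 1134 CPM, so their lowest sum was at 15 h.

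At 6 h 44 of 46 members lay above their 0 h level and 2 below (Ect2 and Anln), but none of the 44 with at least 10 CPM was past 1.5-fold, against 3.47% of all genes higher and 1.45% lower. Prc1 had the highest ratio (31.5 to 45.6 CPM, 1.45-fold). By 15 h all 46 lay below 0 h, and 8 of 44 were past 1.5-fold (4.90% of all genes were that far lower): Ccna2, Cdk1, Aurkb, Birc5, Nuf2, Kif11, Hmmr and Smc2. None was that far higher (7.48% of all genes). Aurkb had the lowest ratio (29.6 to 17.2 CPM, 0.579). By 24 h 39 of 44 were past 1.5-fold lower, against 6.48% of all genes, and none higher (11.9%). Between 15 and 24 h 5 of 44 went lower by 1.5-fold and none higher (1.46% and 2.94% of all genes). Intervals of 45 of 46 members at 24 h lay apart from those at 0 h, but how many of all genes did was not counted. The members' median log2 ratios to 0 h were 0.22, −0.38 and −0.80 at 6, 15 and 24 h. Over all genes of at least 10 CPM they were 0.029, 0.0016 and 0.027.

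Ccna2 was at 93.5 (89.9 to 97.2), 104 (100.4 to 107.5), 58.2 (55.3 to 61.2) and 39.4 (37.2 to 41.6) CPM at 0, 6, 15 and 24 h. It had the lowest ratio at 24 h, 2.38-fold below 0 h. Cdca3 was at 80.6, 93.9, 62.6 and 35.7 CPM, Birc5 at 82.4, 97.3, 54.4 and 38.2 CPM, and Hmmr at 37.6, 40.5, 24.9 and 17.0 CPM. All of them were lowest at 24 h. Ccnb2 took a later course, with 45.97, 59.5, 44.8 and 26.8 CPM, and so did Cenpe, with 43.96, 56.6, 42.8 and 29.1 CPM, both still near their 0 h level at 15 h. Kif23 was at 54.7, 67.1, 50.8 and 43.5 CPM. Incenp was at 35.4, 50.4, 28.3 and 26.4 CPM, with a 6 h ratio next to that of Prc1. Dlgap5 was near its 0 h level at 24 h (7.86 and 8.49 CPM, with overlapping intervals), and lay below it when whole-number entries alone were counted. Pttg1 was at 15.98, 17.5, 13.4 and 11.3 CPM. Medians of the role groups at 24 h, as log2 ratios to 0 h, were −0.96 for kinases and passenger complex, −0.94 for chromosome structure, −0.86 for mitotic entry, −0.80 for checkpoint and exit, −0.69 for spindle and cytokinesis and −0.68 for centromere and kinetochore.

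**Figure D4:**
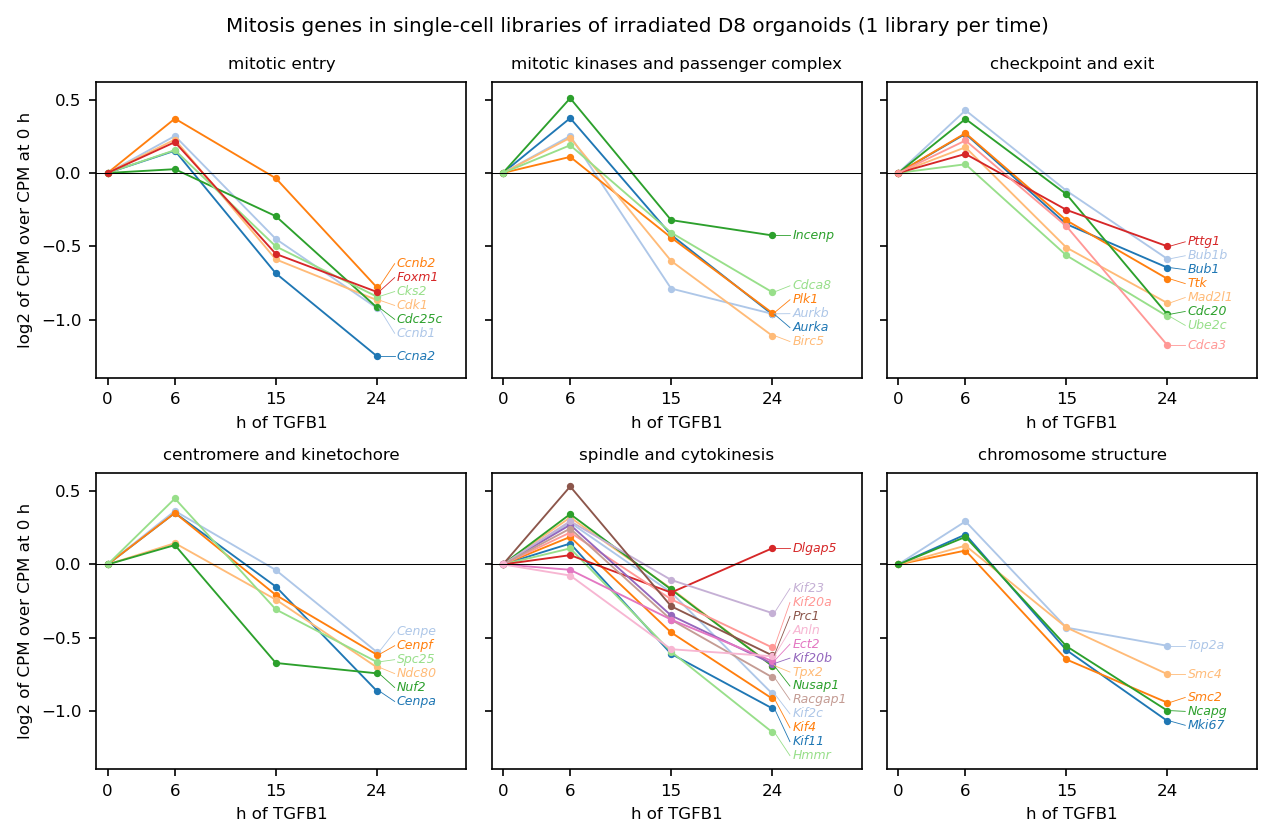
CPM of each of the 46 mitosis genes relative to 0 h (log2 axis) at 0, 6, 15 and 24 h of 1 ng/mL TGFB1 in irradiated D8 organoids, 1 library per time, one panel per role group, 1 line per gene. Most lines lie slightly above 0 at 6 h and below it at 15 and 24 h, and Dlgap5 alone ends above 0.

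The number of cells that held member transcripts was counted after thinning each cell to 2000 UMIs. Cells with at least 5 of the 46 members detected made up 26.2% (24.6 to 27.8; Clopper-Pearson, 95%) at 0 h, 31.2% (29.8 to 32.6) at 6 h, 17.4% (16.0 to 18.8) at 15 h and 12.0% (10.7 to 13.4) at 24 h. Such a class is a range and not a cell type, and 5.36, 6.15, 2.87 and 2.89% of cells lay at the limit with 4 or 5 members. Within these cells the mean number of member UMIs was 12.8, 12.8, 13.9 and 12.5, and in the other cells it was 0.881, 1.05, 0.729 and 0.704. Both means are bounded by the limit that defines the class, so they say nothing about the level per cell. In enterocyte-like cells, which should be post-mitotic, 0 of 369 cells at 0 h (an upper bound of 0.995%), 0.266% at 6 h, 0.0917% at 15 h and 0 of 546 at 24 h (up to 0.673%) reached 5 members. Their median depths were 6371, 6151, 7803 and 13080 UMIs before thinning. The full depth of the cells with at least 5 members at 24 h was 17270 UMIs at the median, against 9829 in the others.

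Most members separated these cells from the rest: at 0 h Mki67 was detected in 49.5% of cells with at least 5 members and 4.07% of the others, Top2a in 54.7 and 4.07%, and Cenpf in 24.2 and 1.11%. Since the members define the class, this is a description. Pttg1 hardly did so, with 4.30 and 2.54%.

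**Figure D5:**
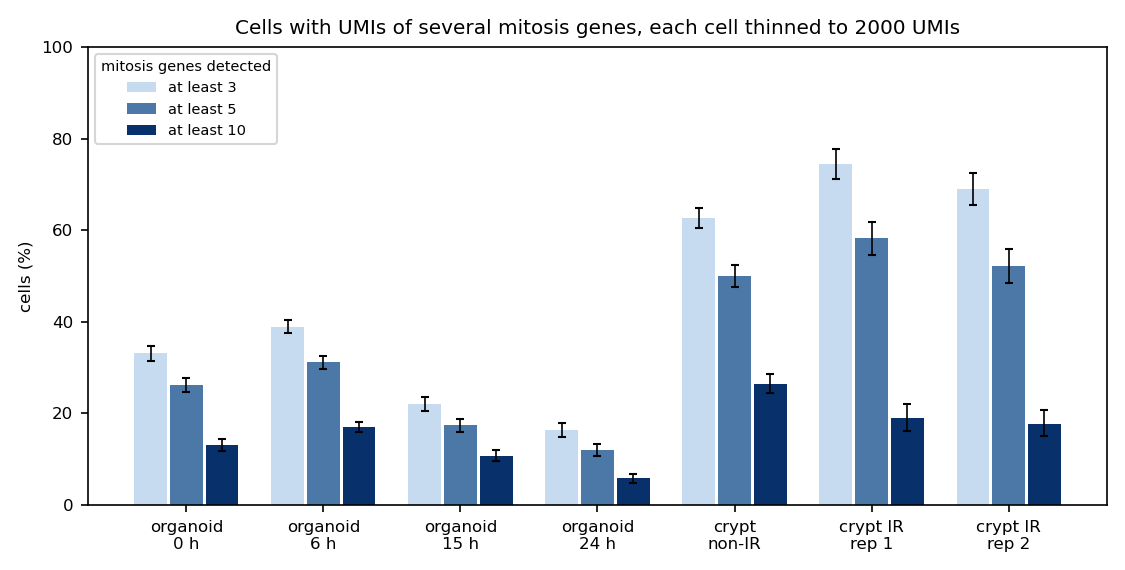
Share of cells (%) with at least 3, 5 or 10 of the 46 mitosis genes detected after thinning to 2000 UMIs, in the 7 single-cell libraries, with bars for 95% Clopper-Pearson intervals. In the organoids each share is lowest at 24 h (12.0% for at least 5), and in the crypt cells the irradiated libraries are above the other at 3 and below it at 10.

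Cells were clustered without the members, the other mitosis genes and the S phase genes. Members were concentrated in clusters 5 (5510 CPM summed over the members; led by Gkn3, Msi1 and Olfm4), 4 (4926 CPM; led by Birc5, Dmbt1 and Cdca3) and 7 (4336 CPM; led by Rgcc, Aqp4 and Clca3b). They were lowest in the enterocyte-like clusters 2 and 0 (221.8 and 228.5 CPM) and in cluster 6 (233.1 CPM). The clusters with most member UMIs differed between libraries. Cluster 7 held 729 cells at 0 h and 45 at 6 h, cluster 5 held 30, 838, 262 and 31 cells at 0, 6, 15 and 24 h, and cluster 3 (led by Cym, Thbs1 and Tnfrsf11b) held 42, 141, 536 and 639. Since 1 library stands for each time, a cluster mostly of 1 time may reflect that library. Within cluster 4 the share of cells with at least 5 members was 69.0% (64.0 to 73.7) at 0 h, 73.3% (69.9 to 76.5) at 6 h, 67.4% (58.8 to 75.2) at 15 h and 74.5% (59.7 to 86.1) at 24 h. Its cells went from 12.5% of the library at 0 h to 2.12% at 24 h. Birc5, Cdca3, Mki67 and Ube2c were among the leading genes of cluster 4. A high share there therefore largely restates how its cells stand out, and does not show the level per cell. Within cluster 3 the share at 24 h was 27.5% (24.1 to 31.2). The share was not steady in every cluster. In cluster 1 it was 9.17% (6.36 to 12.7) at 0 h and 1.67% (0.545 to 3.86) at 24 h. In cluster 10 it was 39.4% (28.0 to 51.7) at 0 h and 15.4% (8.21 to 25.3) at 24 h. Cluster 9 had 10.8% (3.03 to 25.4) at 0 h and 2.44% (1.18 to 4.44) at 24 h, with overlapping intervals. Clusters 5 and 8 went the other way, from 66.7 to 80.6% and from 0 to 1.89%, with overlapping intervals.

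In the sorted Ki67-RFP+ crypt cells the members summed to 3919 CPM (3895 to 3943) in the non-irradiated library and to 3832 (3800 to 3865) and 3430 (3397 to 3462) in the 2 libraries taken 56 h after 12 Gy. These held 1846, 719 and 699 cells at medians of 11970, 14400 and 13500 UMIs, and 1 barcode was shared between the second irradiated library and the organoids at 24 h. Of the 46 genes 3 were past 1.5-fold lower in both irradiated libraries and none higher, while 11.1% of all genes were lower and 19.8% higher by that measure. The median over all genes was 0.14 higher on the log2 scale with irradiation. Ccnb2 was at 102.8 CPM without and at 64.2 and 52.6 CPM with irradiation. Nusap1 was at 74.5 CPM without and at 41.5 and 40.5 CPM with it, and Cdca3 at 203.6 without and at 135.4 and 118.2 with it. Both irradiated libraries were lower in each of the 3. Incenp lay on the other side, with 42.7 CPM without and 70.1 and 63.9 CPM with irradiation (1.64-fold and just under 1.5-fold). Ect2 was at 51.3 CPM without and 72.7 and 74.9 CPM with irradiation. Ccna2 (145.9, 157.7 and 129.9 CPM) and Top2a (244.5, 272.9 and 253.2 CPM) lay on both sides of or close to the non-irradiated level. The S phase list summed to 1848 CPM without and 2745 and 2378 CPM with irradiation.

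After thinning to 2000 UMIs, 50.1% (47.7 to 52.4) of the non-irradiated and 58.3% (54.6 to 61.9) and 52.2% (48.4 to 56.0) of the irradiated crypt cells had at least 5 members. These cells held 13.1 member UMIs on average without irradiation and 10.5 and 10.5 with it. As in the organoids, such means are bounded by the limit that defines the class and do not show the level per cell. At that limit, with 4 or 5 members, lay 9.7% of cells without and 17.7 and 17.5% with irradiation. At a limit of 10 members the shares were 26.5% without and 19.1 and 17.7% with irradiation, so the order of the libraries depended on the limit. In the enterocyte-like cells of the non-irradiated library the share with at least 5 members was 8.00% (5.46 to 11.2). Those cells made up 20.3% of that library, and 4.86% of the second irradiated one. Crypt clusters 1 and 2, the largest of the non-irradiated library, had shares of 58.9 and 64.2%. In the 2 irradiated libraries cluster 0 had 46.4 and 49.5%, and cluster 3 had 74.6 and 67.3%. The part of this cell mix in the order of the libraries was not tested. The gate on the Mki67 reporter can set these shares.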

How the data were processed

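RNA values were deposited by the authors as FPKM, 1 table per condition. Per the submitters' processing notes, tools included TopHat2 2.1.0, Cuffnorm 2.2.1, STARsolo and STAR 2.7.10a, with builds mm9, GRCm39 and mm39, none assigned to a file. The deposited single-cell matrices give the authors' expected counts of UMIs, and fractional entries made up 8.67 to 22.0% of UMIs. All columns were mapped to samples by their labels.

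FPKM were tested per table with limma 3.58.1 (R 4.3.3; limma-trend, robust) on log2(FPKM + 1), for genes whose mean reached 1 FPKM. On simulated data 98.5, 98.5 and 91.0% of changes of 1 log2 unit were recovered (D7 non-IR, D7 IR, D11 IR in turn), and 90.5, 87.9 and 48.5% of changes of 0.5. Replicate numbers were checked for pairing. Correlations of vehicle with TGFB1 libraries ran from −0.0874 to 0.211 for the same number and from −0.164 to 0.211 for different numbers. These ranges overlap and cannot settle whether samples were paired. No block was used, and a fit with one was an alternative.

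UMIs were summed per library as CPM, and counted only as past 1.5-fold at 10 CPM or more in a library. Cells were clustered with scanpy 1.11.5 (2000 variable genes, 30 components, 15 neighbours) and leidenalg 0.10.2 (resolution 0.6). Doublet calls with Scrublet (0.429 to 1.98% of cells) were kept in and left out as an alternative. Only enterocyte-like clusters served as a named class. Median folds over the enterocyte markers were 3.68, 2.33 and 2.95 in the organoid clusters 0, 2 and 12. In clusters 0 and 12 none of these markers was among the 10 leading genes. Other clusters were not used as a class, although crypt cluster 5 had 7 goblet markers among its 10 leading genes.

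Libraries' values are printed for the 2 members of each role group with the highest mean FPKM, those with the largest or smallest change in D7 IR, and those called against the direction of most. Members and lists were chosen with earlier results of these data known. Alternatives were pseudocounts, filters, scalings, a joint fit, a replicate block, leaving out each replicate, cell filters and thinning depths. The 18 ATAC libraries were not analysed here.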

Additional observations from a re-analysis of the deposited data

Results flagged for a closer look

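Interactions are differences between 2 TGFB1 effects in log2(FPKM + 1), tested with limma. They were called for 20 of the 21 members whose libraries are printed, both by irradiation and by day.

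With irradiation the fall at D7 was larger by these log2 values. In mitotic entry they were −1.04 for Ccna2, −0.48 for Ccnb2 and −0.84 for Cks2. In the kinase and passenger group they were −1.09 for Birc5, −0.99 for Plk1 and −0.72 for Incenp. Ube2c had −0.92 and Cdca3 −0.94. Centromere and kinetochore genes had −0.53 for Cenpa, −0.84 for Spc25, −0.33 for Ndc80 and −0.39 for Cenpf. With a pseudocount of 5 the values of Ndc80 and Cenpf were −0.064 and −0.033, and neither was called. Spindle and cytokinesis genes had −0.49 for Prc1, −0.56 for Ect2, −0.80 for Hmmr and −0.61 for Nusap1. Top2a had −0.81, Mki67 −1.16 and Smc4 −0.59. Pttg1 had the opposite sign, at 0.34.

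From D7 to D11 after irradiation the TGFB1 effect moved upward. Ccna2 had 2.33, Ccnb2 1.58 and Cks2 1.23. Birc5 had 2.38, Plk1 2.41 and Incenp 1.36. Ube2c had 1.95 and Cdca3 2.18. At the kinetochore the values were 1.67 for Cenpa, 1.33 for Spc25, 1.23 for Ndc80 and 1.13 for Cenpf. Prc1 had 1.59, Ect2 1.87, Hmmr 2.17, Kif23 1.77 and Nusap1 1.31. Among chromosome structure genes Top2a had 1.51, Mki67 2.21 and Smc4 1.37.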

How the results depend on the processing

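All 46 members were called lower without irradiation at D7 under every alternative at an adjusted p under 0.05 (limma). In D7 IR 46 were called in the analysis as reported, and Pttg1 alone was lost without a filter (adjusted p 0.0636), without trend (0.0525) and with the replicate block (0.0509). A filter at 5 FPKM left 44 members to test. The replicate block gave 45 members lower in D7 IR and otherwise the same counts of members, with 3985 genes higher and 4432 lower in D7 IR. Same-numbered libraries correlated at −0.0277, 0.161 and 0.0491 (D7 non-IR), at 0.0772, 0.211 and 0.0248 (D7 IR) and at −0.0874, −0.0365 and 0.0901 (D11).

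Requiring at least a 2-fold change left 956 genes called without irradiation, 1484 with it, 1574 at D11, 500 in the interaction with irradiation and 1880 in that with day. Of the members it left 15 lower in D7 non-IR, 0 lower and 0 higher at D11, and 5 lower and 0 higher in the interaction with irradiation. The count of members lower at D11 (4) was 2 without a filter and 1 to 5 when each replicate was left out. The 1 member higher in the interaction with irradiation (Pttg1) became 0 without a filter and 0 with all 18 libraries in one fit, and 0 to 1 without single replicates.

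Signs changed only in values near 0. At D11 Cks2 became 0.0032 with median-ratio scaling and 0.013 with quantile normalization, where Mki67 became 0.018. Without single replicates the D11 values ran from −0.16 to 0.094 for Cks2, −0.11 to 0.12 for Mki67, −0.021 to 0.16 for Ube2c, −0.016 to 0.13 for Ndc80 and −0.22 to 0.044 for Cdca3. In the interaction with day Pttg1 ran from −0.20 to 0.046. The cause was not tested.

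In single cells, whole-number entries alone gave 2 members past 1.5-fold higher at 6 h, 8 lower from 15 to 24 h, and 5 lower and 2 higher in irradiated crypt cells. Cells of at least 2000 UMIs and at most 10% mitochondrial UMIs gave 4 lower at 15 h and 1 higher in crypt cells. Thinned to 1000 UMIs, the shares with at least 5 members were 16.0, 20, 12.0 and 6.99% at 0, 6, 15 and 24 h and 31.9, 29.5 and 23.9% in crypt cells. With at least 3 members they were 33.1, 38.9, 22.0 and 16.4%, and 62.7, 74.5 and 69.1%. With at least 10 they were 13.1, 17.0, 10.8 and 5.82%, and 26.5, 19.1 and 17.7%. Counting bases before the start only, 35.1% of member promoters held a CHR and 32.4% both motifs. Read depth of the RNA libraries is unknown, and 1 library per time allows no test in single cells.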
